A study of Mus musculus with 16 samples.

Results

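The 10 genes described here carry fatty acids into fat cells and build triglyceride from them: Lpl, Cd36, Fabp4, Gpam, Agpat2, Lpin1, Dgat1, Dgat2, Mogat1 and Mogat2. They were taken by name as a pathway, with every array probe whose RefSeq accession belongs to one of them. This gave 21 of the 28215 named probes, and 10 of the 19092 genes on the array. All 21 probes were well above background on all 16 arrays, so all 10 genes entered the tests. The study compared male mice with an adipose-tissue-specific knockout of the glucocorticoid receptor (AdipoKO), which is encoded by Nr3c1, with control mice (CTL), called wild-type in the design text. White adipose tissue (WAT) and brown adipose tissue (BAT) were each hybridised on 4 arrays per genotype, and no treatment was given in the labels. The labels name neither the age of the mice nor the promoter that restricted the knockout to adipose tissue, and RNA came from whole tissue, which also holds cells other than fat cells.

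Fat cells obtain most of their fatty acids from circulating lipoproteins. Lipoprotein lipase, the product of Lpl, cuts lipoprotein triglyceride in the capillary, CD36 helps the released fatty acids cross the cell membrane, and FABP4 binds them in the cytosol. Inside the cell, acyl chains are added in turn to glycerol 3-phosphate by GPAM and AGPAT2, LPIN1 removes the phosphate to give diacylglycerol, and DGAT1 or DGAT2 adds the last chain. MOGAT1 and MOGAT2 make diacylglycerol by another route, from monoacylglycerol, best known from the small intestine. Glucocorticoids are known to affect both the storage and the breakdown of fat in adipose tissue.

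Arrays of one group were first set against each other. Of the 24 pairs of arrays within groups, 9 were closer than the error that the scanner software states, with ratios of difference to error of 0.375 to 0.659, and the other pairs had ratios of 1.10 to 4.15. The similar arrays were averaged and counted as 1 sample each: white control arrays 1 with 4 and 2 with 3, white knockout arrays 2, 3 and 4, brown control arrays 2 and 3, and brown knockout arrays 2, 3 and 4. This leaves 2 samples in each white group, 3 brown controls, 2 brown knockouts and 5 residual degrees of freedom. The design text calls the 4 arrays of a group biological replicates, and the near-identical arrays are counted once here. The brightest of the 4 Nr3c1 probes read 2.49, 2.08, 2.34 and 2.49 in white control and 1.58, 1.31, 1.30 and 1.42 in white knockout, and 2.53, 2.71, 2.68 and 2.34 in brown control and 1.57, 1.66, 1.83 and 1.80 in brown knockout. These values, like all levels below, are log2 intensities relative to the array's 75th percentile. All knockout arrays lay below all control arrays of their tissue. The difference was -0.89 ± 0.23 (SE) in white fat (limma, adjusted p = 0.414) and -0.85 ± 0.21 in brown fat (adjusted p = 0.619). The other 3 Nr3c1 probes gave -1.10, -0.99 and -0.23 in white fat and -0.81, -0.35 and -0.64 in brown fat in the same order, so the size of the difference depended on the probe. The position of these probes relative to the deleted part of the gene is not given in the sources used here, so the probes do not test the knockout itself. White knockout array 1 stood apart from arrays 2, 3 and 4, and the 10 genes are therefore given array by array.

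In white fat, all 10 genes had a lower mean in knockout than in control. Their median log2 difference was -1.20, against -0.032 over all 15456 genes tested, and 52.3% of all genes had a difference below 0. In fold terms Mogat2 was 3.85-fold and Agpat2 3.38-fold lower, Lpl, Cd36, Gpam, Dgat2 and Mogat1 were between 2.02-fold and 2.55-fold lower, and Fabp4 was 1.15-fold lower. None of these differences passed the threshold of 0.05 after Benjamini-Hochberg adjustment in limma, and neither did any other gene (0%). Gpam, Lpin1, Dgat2, Mogat1 and Mogat2, 5 of the 10, had an unadjusted p below 0.05, as did 9.96% of all genes (6.39% with a lower value). When the 16 arrays were instead entered as separate samples, 9 of the 10 passed, all but Fabp4, and 25.5% of all genes passed as lower. With a replicate block added to that fit all 10 passed, as did 46.1% of all genes in either direction. Fits on 16 separate arrays, here and below, count near-identical arrays as independent. On single arrays, 8 of the 10 genes had all 4 white knockout arrays below all 4 control arrays, an arrangement that 18.3% of all genes showed.

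**Figure D1:**
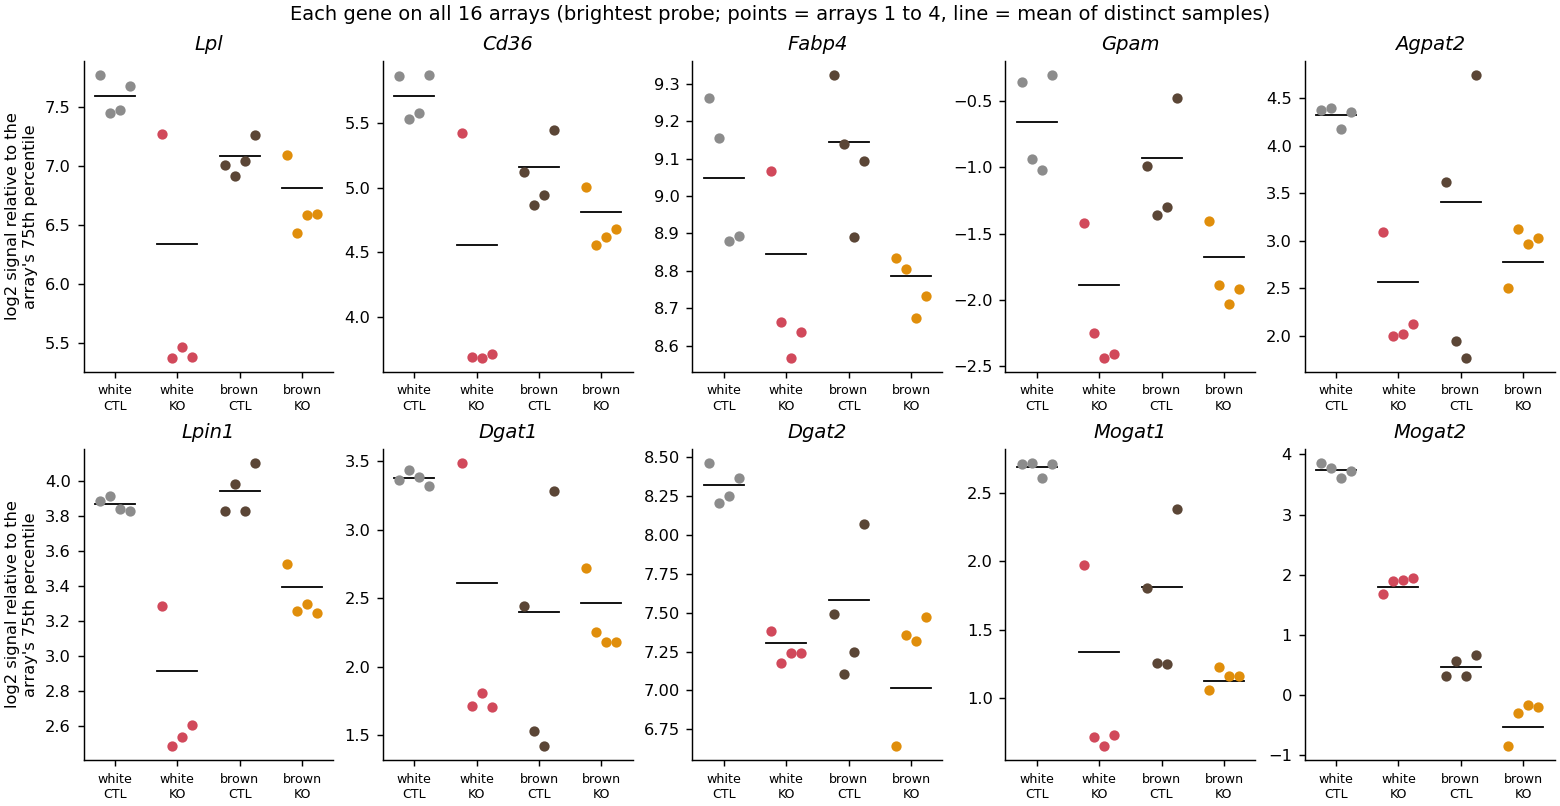
Log2 intensity relative to each array's 75th percentile (vertical axis, its range set for each gene) of the brightest probe of each of the 10 genes on all 16 arrays, for control and knockout mice in white and then brown fat. Points are arrays 1 to 4 from left to right and lines are means over the distinct samples; white knockout array 1 lies above arrays 2, 3 and 4 for 9 of the 10 genes, and Mogat2 is higher on every white array than on any brown array.

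The genes of fatty acid uptake showed a wide gap between the 2 white knockout samples. Lpl, the lipase that frees fatty acids from lipoproteins, read 7.76, 7.45, 7.47 and 7.67 on white control arrays 1 to 4 and 7.27, 5.38, 5.47 and 5.39 on the knockout arrays in the same order. The groups did not overlap, but array 1 sat just under the controls while arrays 2, 3 and 4 were far lower. The difference was -1.25 ± 0.56 (SE), with adjusted p = 0.502 (limma), and it was -0.32 for array 1 and -2.18 for arrays 2, 3 and 4 averaged. Cd36, the fatty acid translocase, read 5.87, 5.53, 5.58 and 5.87 in control and 5.42, 3.69, 3.68 and 3.71 in knockout. Here too array 1 lay close below the controls. The difference was -1.15 ± 0.53 (SE) (limma, adjusted p = 0.508), made up of -0.29 for array 1 and -2.02 for the other sample. Fabp4, the fatty acid binding protein of fat cells, read 9.26, 9.16, 8.88 and 8.89 in control and 9.07, 8.66, 8.57 and 8.64 in knockout with its brightest probe. Array 1 lay within the control range and arrays 2, 3 and 4 lay below it. Its difference was -0.20 ± 0.23 (SE) (limma, adjusted p = 0.723, 95% interval -0.75 to 0.34).

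The glycerol phosphate enzymes were lower on all 4 knockout arrays than on any control array. Gpam, the mitochondrial acyltransferase that adds the first acyl chain, read -0.36, -0.94, -1.02 and -0.30 in control and -1.42, -2.25, -2.44 and -2.41 in knockout. The control arrays fell in pairs, 1 with 4 and 2 with 3, and the highest knockout array was array 1. The difference was -1.24 ± 0.45 (SE) (limma, adjusted p = 0.464). Agpat2, the acyltransferase of the next step, whose loss causes congenital lipodystrophy, read 4.38, 4.4, 4.18 and 4.36 in control and 3.10, 1.997, 2.02 and 2.12 in knockout. Both knockout samples were well below the narrow control range. Its difference of -1.76 ± 0.86 (SE) had adjusted p = 0.524 (limma), with a 95% interval of -3.78 to 0.26. Lpin1, a phosphatidate phosphatase that also acts with transcription factors in the nucleus, read 3.89, 3.92, 3.84 and 3.83 in control and 3.29, 2.48, 2.53 and 2.61 in knockout. The control arrays agreed closely, and array 1 lay between them and the other knockout arrays. The difference was -0.95 ± 0.29 (SE) (limma, adjusted p = 0.427).

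RefSeq promoter windows (GRCm38.p6, the 250 bases before a transcript start) were at hand for Mogat1, Agpat2, Cd36, Lpin1 and Gpam, the last with 2 windows. They are shown for Lpin1, which holds the one receptor hexamer found, and for Agpat2 and Mogat1, whose windows adjoin the annotated gene edge. The windows of Cd36, Lpin1 and Gpam do not adjoin that edge. The Lpin1 window is chr12:16610967-16611216, minus strand, and its capitals mark AGAACA, the core hexamer of glucocorticoid receptor sites, read on the other strand, 163 bases before the start. The Agpat2 window is chr2:26604418-26604667, minus strand, with capitals on 2 GC boxes. The Mogat1 window is chr1:78510810-78511059, plus strand, and holds none of the motifs searched.
Lpin1: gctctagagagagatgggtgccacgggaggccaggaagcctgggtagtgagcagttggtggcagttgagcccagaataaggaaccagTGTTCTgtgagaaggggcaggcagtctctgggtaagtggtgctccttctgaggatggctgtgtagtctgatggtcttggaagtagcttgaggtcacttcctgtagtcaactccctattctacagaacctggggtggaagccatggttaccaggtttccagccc
Agpat2: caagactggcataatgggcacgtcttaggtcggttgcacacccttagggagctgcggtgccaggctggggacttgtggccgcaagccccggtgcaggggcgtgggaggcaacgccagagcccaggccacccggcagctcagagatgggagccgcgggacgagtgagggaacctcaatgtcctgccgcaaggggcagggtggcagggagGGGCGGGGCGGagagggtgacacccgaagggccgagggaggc
Mogat1: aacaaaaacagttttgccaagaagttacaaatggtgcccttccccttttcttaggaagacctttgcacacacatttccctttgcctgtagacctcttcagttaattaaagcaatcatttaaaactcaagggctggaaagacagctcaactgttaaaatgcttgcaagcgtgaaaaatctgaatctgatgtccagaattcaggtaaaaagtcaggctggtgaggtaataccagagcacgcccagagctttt

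Motifs were searched on both strands in these 6 windows and in all 32851 windows of the same length. The hexamer AGAACA, which is also part of the full glucocorticoid receptor element, occurred in 16.1% of all windows. The full element, in which AGAACA is followed after 3 free bases by its reverse complement TGTTCT, occurred in 3 windows of the whole table and in none of the 6. The GC box GGGCGG was in windows of Agpat2, Cd36 and Gpam and in 32.7% of all windows, and the CCAAT box CCAAT was in windows of Cd36 and Gpam and in 33.8% of all. The PPAR and RXR element (a direct repeat of AGGTCA spaced by 1 free base), the sterol element TCACNCCAC, the E-box CACGTG and the C/EBP core TTGCGCAA were in none of the 6, and in 0.0335%, 1.05%, 6.02% and 0.164% of all windows. These matches describe the letters of the windows only.

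The last acylation step is shared by Dgat1 and Dgat2. Dgat2, the diacylglycerol acyltransferase at the lipid droplet, read 8.46, 8.21, 8.24 and 8.36 in control and 7.38, 7.17, 7.24 and 7.24 in knockout. The groups were apart, and unlike Lpl and Cd36 both knockout samples were low, by -0.93 for array 1 and -1.10 for the other sample. The difference was -1.01 ± 0.36 (SE) (limma, adjusted p = 0.464). Dgat1, an unrelated protein with the same activity, read 3.36, 3.44, 3.38 and 3.32 in control and 3.48, 1.71, 1.80 and 1.71 in knockout. Array 1 was the highest white array and the other knockout arrays were the lowest, so the groups overlapped. The difference of -0.76 ± 0.70 (SE) (limma, adjusted p = 0.669) joins 0.11 for array 1 and -1.64 for arrays 2, 3 and 4.

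The monoacylglycerol acyltransferases were apart from control on every knockout array. Mogat1 read 2.71, 2.71, 2.61 and 2.71 in white control and 1.97, 0.72, 0.65 and 0.73 in knockout. Array 1 lay between the controls and the other knockout arrays. The difference was -1.35 ± 0.49 (SE) (limma, adjusted p = 0.464). Mogat2 read 3.85, 3.78, 3.61 and 3.73 in control and 1.68, 1.90, 1.92 and 1.94 in knockout. It was the single gene of the 10 for which array 1 was the lowest knockout array, and both samples were low, by -2.07 and -1.83. Its difference of -1.95 ± 0.27 (SE) had an unadjusted p of 0.000168 and an adjusted p of 0.215 (limma). The 16 arrays were also fitted with slide as a block, which counts near-identical arrays as independent. Slide, here and below, means arrays that share the long number in the sample title. In that fit Mogat2 was the only one of the 10 to pass, at -1.88 ± 0.20 with adjusted p = 0.00514 (limma), among 1.26% of all genes.

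**Figure D2:**
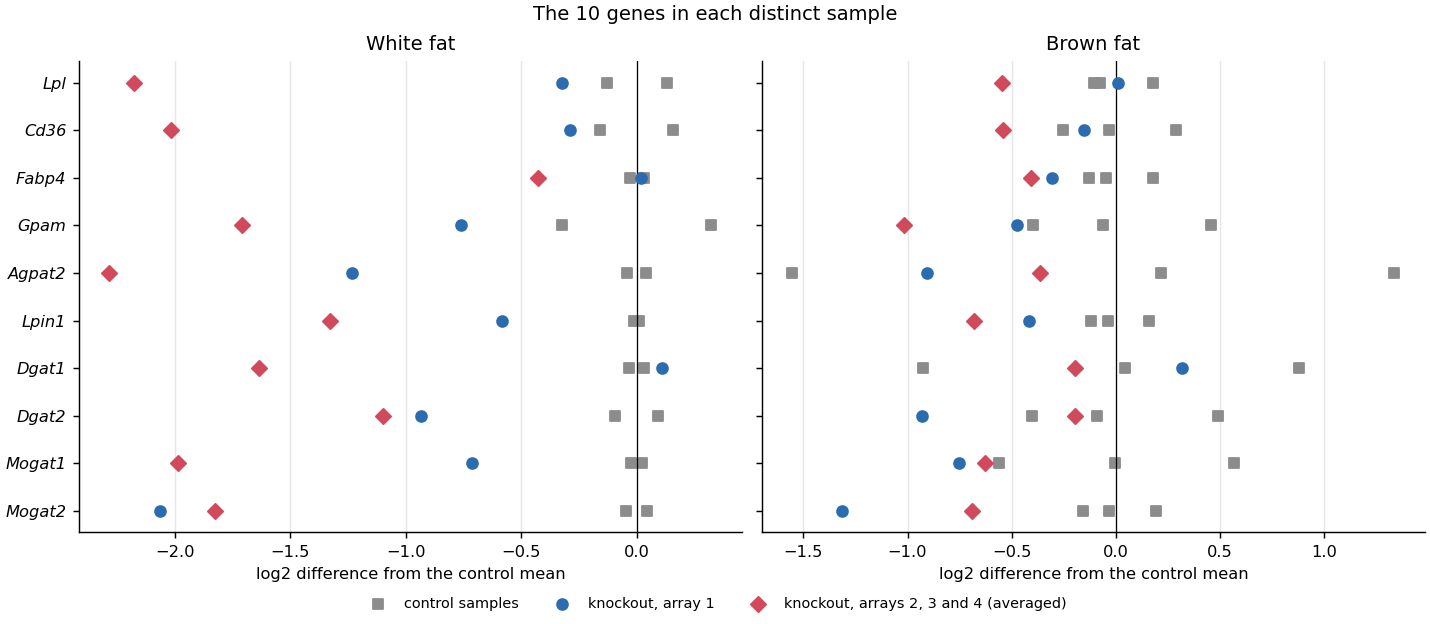
Log2 difference of each distinct sample from the mean of the control samples (horizontal axis), for the 10 genes in white fat (left) and brown fat (right); squares are control samples, circles knockout array 1 and diamonds knockout arrays 2, 3 and 4 averaged. In white fat the diamonds lie lower than the circles for 9 genes, with medians of -1.77 and -0.65, and in brown fat the medians of the knockout samples are -0.54 and -0.45.

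Over the 10 genes, the median difference from the white control mean was -0.65 for knockout array 1 and -1.77 for arrays 2, 3 and 4. Without array 1, 5 genes passed the threshold in limma with 1 knockout sample left, assumed to vary like the other groups, as did 11% of all genes. These were Lpl (-2.18, adjusted p = 0.0293), Cd36 (-2.02, 0.0311), Lpin1 (-1.33, 0.0336), Mogat1 (-1.99, 0.0439) and Mogat2 (-1.83, 0.0332). Without arrays 2, 3 and 4 the values of Fabp4 and Dgat1 were above 0, at 0.018 and 0.11. The only slide with both white groups, holding control arrays 3 and 4 and knockout arrays 1 and 2, gave -1.25 for Lpl, -1.17 for Cd36, -0.022 for Fabp4, -1.17 for Gpam and -1.72 for Agpat2. On the same slide the difference was -0.95 for Lpin1, -0.76 for Dgat1, -1.02 for Dgat2, -1.32 for Mogat1 and -1.88 for Mogat2.

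Cell type markers moved with these samples. All 13 tested adipocyte markers (Adipoq, Plin1, Lep and others, with Adrb3 not tested) had a difference below 0 in white knockout, with a median of -0.19 for array 1 and -1.81 for arrays 2, 3 and 4. Their summed level, in multiples of the 75th percentile, was 1554 to 2041 in white control and 722 to 1502 in white knockout. All 15 markers of T, B and NK cells were tested, 14 had a difference above 0, and their median was -0.87 for array 1 and 3.38 for arrays 2, 3 and 4, with summed levels of 6.38 to 41.1 in control and 12.9 to 213 in knockout. All 10 proliferation markers were tested and 9 had a difference above 0, with sums of 3.88 to 8.39 in control and 4.09 to 42.6 in knockout and medians of -0.58 for array 1 and 2.83 for the other sample. All 10 mesothelial markers had a difference below 0, with sums of 23.3 to 45.0 in control and 2.72 to 39.0 in knockout and medians of 0.11 and -3.60 for the same samples. No marker of these 4 lists passed the threshold, and none of their tested members was below background on all arrays of a white group. All 6 tested intestine epithelium markers, a tissue rich in Mogat2, had a difference above 0, with sums of 0.361 to 0.930 in control and 0.540 to 4.06 in knockout and medians of -0.11 and 2.43, and Cdx1 and Cdx2 were not well above background on any white control array. Of the other lists, 9 of 10 progenitor, 9 of 10 endothelial, 10 of 14 macrophage and 4 of 5 liver markers had a difference below 0, and 12 of 14 skeletal muscle markers one above 0. Between array 1 and the other knockout sample their medians went from -0.36 to -1.42 for progenitor, -0.24 to -0.88 for endothelial, -0.79 to 0.25 for macrophage, -0.94 to -2.18 for liver and -0.47 to 1.60 for muscle markers. The part of these markers in the values of the 10 genes was not tested. In whole tissue, fewer cells of a type and less RNA per cell cannot be told apart.

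In brown fat, 9 of the 10 genes had a lower mean in knockout, all but Dgat1, with a median difference of -0.56 against -0.12 over all genes, of which 59.9% were below 0. No gene of the 15456 passed the threshold in limma (0%), and Mogat2 was the only one of the 10 with an unadjusted p below 0.05, as were 7.05% of all genes. With 16 separate arrays, 3 of the 10 passed as lower, Gpam, Lpin1 and Mogat2, with 17.8% of all genes. With the replicate block 4 of the 10 passed, among 32.2% of all genes in either direction. Fabp4, Gpam, Lpin1, Mogat1 and Mogat2, 5 of the 10, had all 4 knockout arrays below all 4 control arrays, as had 16.5% of all genes.

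Among the uptake genes, Lpl read 7.01, 6.91, 7.04 and 7.26 in brown control and 7.09, 6.43, 6.58 and 6.59 in brown knockout. Knockout array 1 lay inside the control range and the other arrays below it, and the difference was -0.27 ± 0.51 (SE) (limma, adjusted p = 0.837). Cd36 read 5.13, 4.87, 4.94 and 5.45 in control and 5.005, 4.56, 4.62 and 4.68 in knockout. The same array overlapped the controls, with a difference of -0.35 ± 0.48 (SE). Fabp4 read 9.32, 9.14, 8.89 and 9.09 in control and 8.84, 8.81, 8.67 and 8.73 in knockout. The groups were apart by a small step, and the difference was -0.36 ± 0.21 (SE) (limma, adjusted p = 0.619), although the value was 0.15 after quantile normalization and 0.072 with the unscaled deposited values. Lpl and Cd36 also had values above 0 with the unscaled values, at 0.16 and 0.083, and Lpl at 0.015 after quantile normalization.

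Agpat2 and Dgat1 varied widely among the brown controls. Agpat2 read 3.62, 1.94, 1.77 and 4.74 in control and 2.50, 3.13, 2.97 and 3.03 in knockout. Control array 4 was high, arrays 2 and 3 were low, and all knockout arrays lay between them, so that the difference of -0.63 ± 0.78 (SE) (limma, adjusted p = 0.749) became 0.034 without control array 4 and -1.41 without arrays 2 and 3. Dgat1 read 2.44, 1.53, 1.42 and 3.28 in control and 2.72, 2.25, 2.18 and 2.18 in knockout, with the same order of control arrays. Its difference was 0.06 ± 0.64 (SE) (limma, adjusted p = 0.975), with a 95% interval of -1.46 to 1.58, and it ran from -0.40 without control arrays 2 and 3 to 0.50 without control array 4. Dgat2 read 7.49, 7.11, 7.25 and 8.07 in control and 6.64, 7.36, 7.32 and 7.47 in knockout. Here knockout array 1 was the lowest and the other knockout arrays lay inside the control range, with a difference of -0.56 ± 0.33 (SE).

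Gpam, Lpin1 and both Mogat genes gave the brown groups that did not overlap among the synthesis genes. The gap was narrow for Gpam (-1.36 in control and -1.41 in knockout) and for Mogat1 (1.25 and 1.23). Gpam read -0.99, -1.36, -1.30 and -0.47 in control and -1.41, -1.89, -2.03 and -1.92 in knockout, a difference of -0.75 ± 0.41 (SE). Lpin1 read 3.83, 3.98, 3.83 and 4.10 in control and 3.53, 3.25, 3.30 and 3.25 in knockout, a difference of -0.55 ± 0.26 (SE) (limma, adjusted p = 0.619). The Lpin1 control arrays agreed within a narrow range and every knockout array was below it. Mogat1 read 1.81, 1.25, 1.25 and 2.38 in control and 1.06, 1.23, 1.16 and 1.16 in knockout, a difference of -0.69 ± 0.44 (SE). Mogat2 read 0.31, 0.56, 0.31 and 0.66 in control and -0.85, -0.30, -0.16 and -0.20 in knockout, a difference of -1.001 ± 0.25 (SE) or 2-fold lower (limma, unadjusted p = 0.0047, adjusted p = 0.619). Its knockout array 1 was the lowest of all 16 arrays. Within the slide that holds brown control arrays 3 and 4 and knockout arrays 1 and 2, the differences were -0.76 for Gpam, -0.58 for Lpin1, -0.67 for Mogat1 and -1.06 for Mogat2, and between -0.66 and 0.13 for the other genes.

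The brown samples also differed in markers. In brown knockout 12 of 13 adipocyte markers had a difference below 0, with a median of -0.25, and 7 of 10 brown adipocyte markers, with a median of -0.42. The 13 adipocyte markers had summed levels of 1071 to 1558 in brown control and 876 to 1141 in brown knockout, with a median difference from the control mean of -0.50 for control arrays 2 and 3 and 0.37 for control array 4. The 10 genes had -0.33 and 0.37 there. The 10 brown adipocyte markers (Ucp1, Cidea, Elovl3 and others) had sums of 413 to 1239 in control and 435 to 582 in knockout, with medians of -1.29 for control arrays 2 and 3 and 1.08 for control array 4. The 15 markers of T, B and NK cells had sums of 1.62 to 36.8 in control and 34.7 to 140 in knockout, and 13 of them had a difference above 0. All 14 skeletal muscle markers had a difference below 0, with sums of 3770 to 5250 in control and 2113 to 3376 in knockout. Of the 10 proliferation markers 9 had a difference above 0, with sums of 2.71 to 4.31 and 8.91 to 19.5. Progenitor markers (8 of 10 below 0) had sums of 227 to 284 in control and 148 to 174 in knockout, and endothelial markers (8 of 10 below 0) 50.3 to 67.8 and 44.2 to 46.9. The sums of these last 4 lists did not overlap between the brown groups. Macrophage (10 of 14), mesothelial (9 of 10), liver (5 of 5) and intestine (4 of 6) markers were also mostly below 0, with sums that overlapped. Of the mesothelial markers, Upk1b and Wt1 were not well above background on any brown array, nor Upk3b and Bnc1 on any brown knockout array. No marker of any list passed the threshold for the brown knockout comparison, and their part in the values of the 10 genes was not tested.

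**Figure D3:**
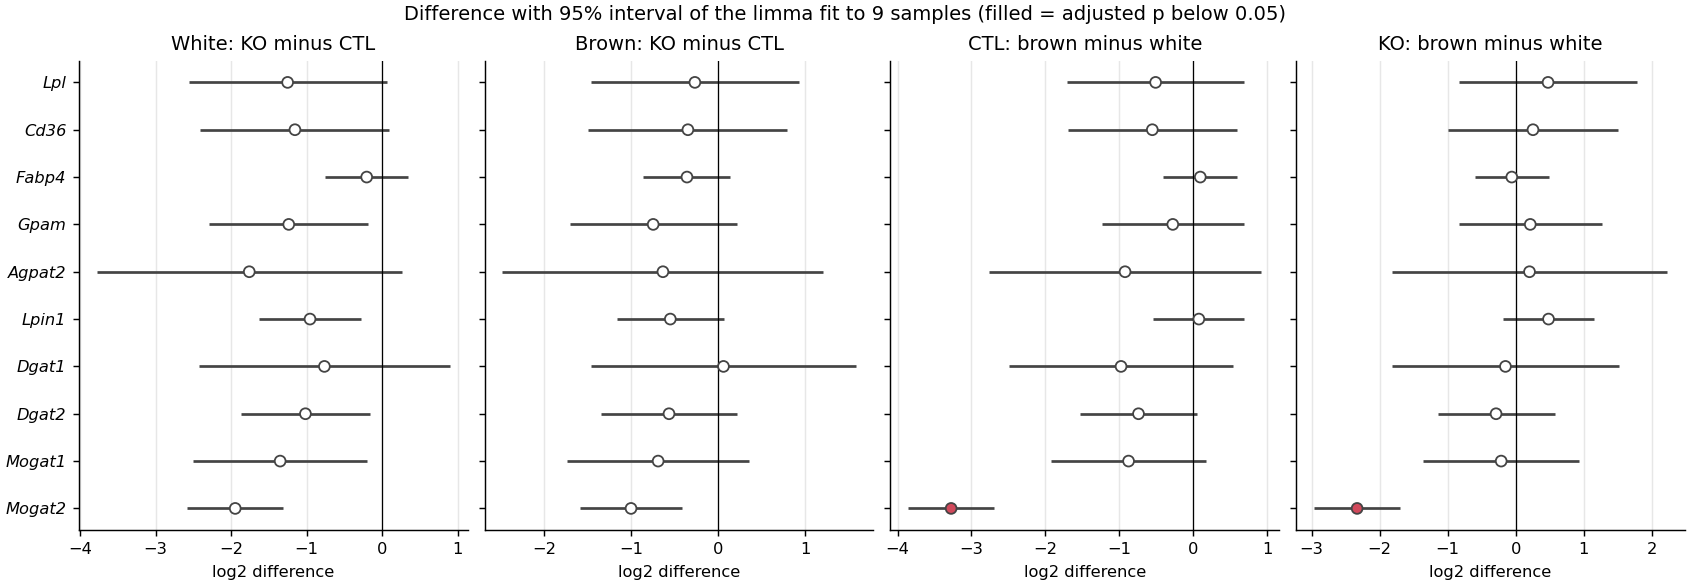
Log2 differences of the 10 genes (points) with 95% intervals from the limma fit to 9 samples (bars), for knockout minus control in white and brown fat and for brown minus white in control and knockout mice; each panel has its own horizontal scale. Filled points passed the adjusted threshold, which Mogat2 alone did, at -3.27 and -2.33 between tissues.

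The knockout difference was compared between the tissues with an interaction term. It was higher (closer to 0, or above 0 for Dgat1) in brown than in white fat for 9 of the 10 genes, all but Fabp4. Fabp4 too was above 0 after quantile normalization, with the unscaled values and with normexp background. The median of the 10 was 0.73 against 0.012 over all genes, of which 48.9% were below 0. The 13 adipocyte markers had a median of 0.71, with 12 above 0, and their part in the values of the 10 genes was not tested. None of the 10 and no gene of the 15456 (0%) passed in limma. Mogat2 was the only one of the 10 with an unadjusted p below 0.05, as were 2.6% of all genes. Its limma difference was 0.94 ± 0.37 (SE), with an unadjusted p of 0.0359 and an adjusted p of 1. With 16 separate arrays Mogat2 alone passed, at 1.05 ± 0.21 with adjusted p = 0.0216 (limma), among 4.15% of all genes in either direction, and with the replicate block 1 gene passed, among 2.1%. The interval for Lpl ran from -0.79 to 2.76 and that for Agpat2 from -1.61 to 3.86, so these samples bound the difference between the tissues only loosely.

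No slide held white and brown arrays of the same genotype, so tissue and slide were not separated within a genotype. Between the tissues, Mogat2 was the gene of the 10 that differed past the threshold. In control mice it read 3.61 to 3.85 on white and 0.31 to 0.66 on brown arrays, 9.68-fold lower in brown fat (-3.27 ± 0.25 (SE), limma, adjusted p = 0.000678). In knockout mice it read 1.68 to 1.94 on white and -0.85 to -0.16 on brown arrays, 5.03-fold lower (-2.33 ± 0.27 (SE), limma, adjusted p = 0.00816). Its 4 groups were highest in white control, then white knockout and brown control, and lowest in brown knockout, with no overlap of arrays between neighbours. Of all genes tested, 5.09% passed between tissues in control mice (1.15% lower in brown fat) and 1.51% in knockout mice (0.214% lower). The control call held in all 31 alternatives. The knockout call held in 30 of 31, all but the fit without brown knockout array 1, which leaves 1 brown knockout sample. Leaving out arrays of the other genotype could not move either difference and changed only its SE.

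The other 9 genes did not pass between tissues. In control mice 8 of the 10 had a lower mean in brown fat, as had 55.2% of all genes, and in knockout mice 5 of the 10, as had 53.3%. In control mice, 6 of the 10 genes (Lpl, Cd36, Dgat1, Dgat2, Mogat1 and Mogat2) had all 4 brown arrays below all 4 white arrays, as had 26.2% of all genes. Their differences were -0.51 ± 0.51 (SE) for Lpl, -0.55 ± 0.48 (SE) for Cd36, -0.98 ± 0.64 (SE) for Dgat1, -0.74 ± 0.33 (SE) for Dgat2 and -0.87 ± 0.44 (SE) for Mogat1, with adjusted p between 0.243 and 0.575 (limma). Agpat2 gave -0.92 ± 0.78 (SE) and Gpam -0.28 ± 0.41 (SE). With slide as a block on the 16 arrays, Lpl took the other sign at 0.28, Cd36 at 0.13 and Gpam at 0.080. Fabp4 and Lpin1 were near 0, at 0.10 ± 0.21 (SE) and 0.08 ± 0.26 (SE), with 95% intervals of -0.40 to 0.60 and -0.54 to 0.69, and both took a sign below 0 after quantile normalization, in the unscaled table and with normexp background. In knockout mice only Mogat2 had all brown arrays below all white arrays, as had 13.5% of all genes. Lpl (0.47 ± 0.56 (SE)), Cd36 (0.25 ± 0.53 (SE)) and Lpin1 (0.48 ± 0.29 (SE)) had higher means in brown than in white knockout fat, and Dgat1 (-0.15 ± 0.70 (SE)), Dgat2 (-0.29 ± 0.36 (SE)) and Mogat1 (-0.21 ± 0.49 (SE)) lower ones, with adjusted p of at least 0.483 in limma; with the unscaled deposited values Dgat1 and Mogat1 took the other sign, at 0.13 and 0.072. Agpat2 gave 0.20 ± 0.86 (SE), Gpam 0.21 ± 0.45 (SE) and Fabp4 -0.06 ± 0.23 (SE) there, the last at 0.23 with the unscaled values. With 16 separate arrays, Dgat1, Dgat2 and Mogat1 passed beside Mogat2 in control mice and Lpin1 beside Mogat2 in knockout mice, as did 19.6% of all genes as lower in control and 25.8% in either direction in knockout mice. The replicate block over 16 arrays gave the same counts of 4 and 2 for these comparisons, among 40% and 25.3% of all genes.

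Cell type markers also differed between brown and white fat. Of the 13 adipocyte markers 11 were below 0 in control mice, with a median of -0.70 against -0.65 for the 10 genes. In knockout mice 4 of the 13 were below 0, with a median of 0.080 against 0.072. No adipocyte marker was called in either genotype. All 14 skeletal muscle markers (Acta1, Ckm, Myh4 and others) were higher in brown fat and passed in both genotypes, with summed levels of 4.35 to 6.49 in white control and 10.4 to 13.4 in white knockout against 3770 to 5250 in brown control and 2113 to 3376 in brown knockout. Of the 10 mesothelial markers, 5 were called lower in brown control fat, where Upk1b and Wt1 were not well above background on any array. The filter kept Upk1b and Wt1 through the white groups, so they had to be lower in brown fat. The summed level of the mesothelial markers did not follow the count of calls, at 20.8 to 107 in brown control and 23.3 to 45.0 in white control. All 14 macrophage markers were below 0 in brown fat in both genotypes, with 2 called in control mice, and their sums were 18.5 to 52.2 in brown and 68.5 to 124 in white control. Endothelial markers were below 0 for 10 of 10 in control mice, with 2 called, and for 9 of 10 in knockout mice. Of the 10 brown adipocyte markers 9 were above 0 in control and 10 in knockout mice, with 2 called in each. Elovl3, one of them, was not well above background on any white knockout array. All 6 tested intestine epithelium markers were below 0 in brown against white knockout fat, with a median of -1.63 and 1 called. In control mice 4 of the 6 were above 0, with a median of 0.33 and 0 called. The part of these markers in the values of the 10 genes, Mogat2 among them, was not tested.

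Probes of one gene mostly gave like differences in white knockout. The 3 Lpin1 probes lay between -0.95 and -0.93, the 3 Mogat1 probes between -1.46 and -1.35, and the 2 Lpl probes at -1.25 each. The 2 Agpat2 probes gave -1.74 and -1.76 and the 2 Dgat1 probes -0.93 and -0.76, while Cd36, Gpam and Mogat2 had 1 probe each. Fabp4 and Dgat2 differed by probe. The brightest Fabp4 probes, at up to 62.5% and 43.6% of the scanner's saturation value, gave -0.20 and -0.059, and the dimmest, at up to 9.69%, gave -1.01 ± 0.66 (SE). The dimmest Fabp4 probe read 6.57, 6.004, 6.12 and 6.45 in white control and 6.33, 4.30, 4.20 and 4.19 in knockout, so that arrays 2, 3 and 4 lay as far below the controls as they did for Lpl. For Dgat2 the brightest probe, at up to 36.5% of saturation, gave -1.01, and the dimmer probes -1.66 and -1.83. No probe was saturated on any array, and whether the upper end of the scanner's range compressed the brightest probes was not tested. In brown fat the probes of Lpl disagreed in sign, at -0.27 and 0.095, and so did those of Dgat1, at 0.061 and -0.049.

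**Figure D4:**
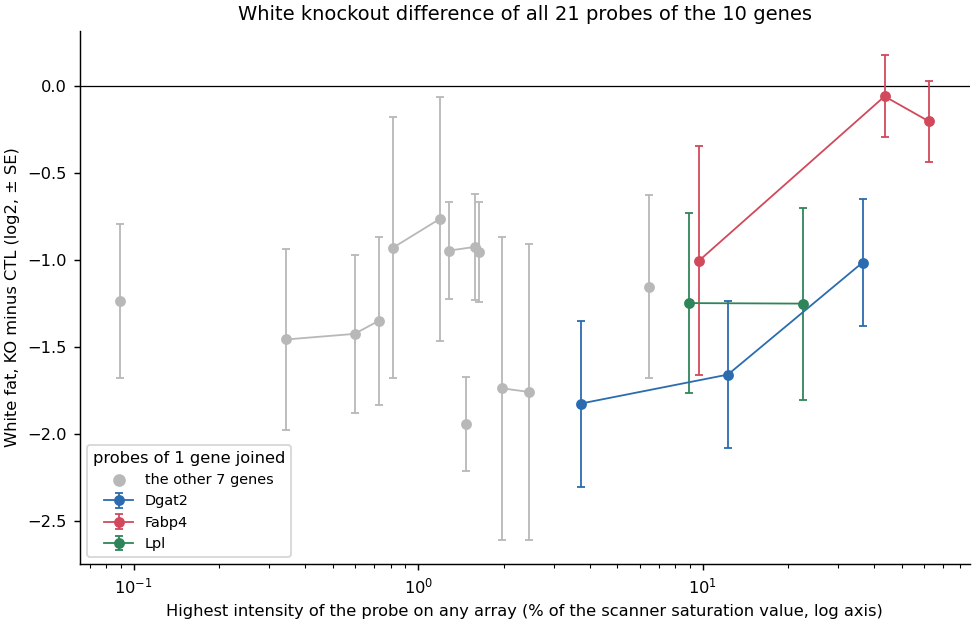
Log2 difference of white knockout against control (vertical axis, ± SE of the limma fit) for all 21 probes of the 10 genes against the highest intensity of the probe on any array, as a percent of the scanner's saturation value (log axis); lines join probes of 1 gene. The dimmest Fabp4 probe lies at -1.01 and its brighter probes at -0.059 and -0.20, and the Dgat2 probes run from -1.83 to -1.01 with rising intensity.

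Other genes of the pathway were described from lists of relatives and partners. No gene of these lists passed in either knockout comparison. Among lipase partners 9 of 11 tested genes were below 0 in white knockout (median -0.95, with medians within the samples of -0.24 for array 1 and -0.80 for arrays 2, 3 and 4) and 10 of 11 in brown knockout (median -0.57). Angptl4, a lipoprotein lipase inhibitor, read 7.21 to 8.07 in white control and 6.06 to 7.18 in knockout (-0.9998 ± 0.40, limma, adjusted p = 0.492). Gpihbp1, which anchors the lipase in capillaries, read 3.999 to 4.27 and 2.20 to 3.93 (-1.10 ± 0.56, adjusted p = 0.528). Among uptake and activation genes 9 of 13 were below 0 in white and 12 of 13 in brown knockout, with medians of -0.61 and -0.53. Of the genes above 0 in white fat, Slc27a2 was not well above background on any white array and Acsl6 on no white control array. The white median was -0.035 for array 1 and -1.12 for the other knockout sample. Cav1, the caveolar coat protein, had -1.35 ± 0.55 in white fat (-0.40 and -2.30 for the same samples), and the fatty acid transport protein Slc27a4 had -0.92 ± 0.37 in white (-0.44 and -1.40) and -0.61 ± 0.33 in brown fat.

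The lipid droplet list, with 6 of 7 genes below 0 in each tissue, had medians of -1.17 in white and -0.56 in brown knockout. Fitm1, the gene above 0 in white fat, was not well above background on any white array. The white median was -0.26 for array 1 and -1.62 for arrays 2, 3 and 4. Bscl2, the seipin gene, whose loss causes lipodystrophy as that of Agpat2 does, read 2.88 to 3.28 in white control and 1.16 to 2.23 in knockout (-1.38 ± 0.47, limma, adjusted p = 0.458). Plin2, a droplet coat protein, read 6.88 to 7.39 and 5.57 to 5.89 (-1.43 ± 0.54, adjusted p = 0.481). The relatives of the acyltransferases and lipins stood nearer to all genes, with 10 of 16 below 0 in both tissues and medians of -0.20 and -0.13 (in white -0.022 for array 1 and -0.47 for the other sample). Lpin2, a relative of Lpin1, had differences above 0 in both, at 0.64 ± 0.40 (0.048 and 1.24 for the white knockout samples) and 0.71 ± 0.36. Plpp2, another phosphatidate phosphatase, had -1.08 ± 0.48 in white fat (-0.70 and -1.46) and Agpat1 had -0.45 ± 0.20 in brown fat. In the glycerol phosphate supply list 4 of 5 genes were below 0 in white and 3 of 5 in brown knockout, with a white median of -0.013 for array 1 and -0.82 for the other sample. In white fat the glycerol channel Aqp7 had -1.24 ± 0.68 (-0.36 and -2.12) and the glycerol phosphate dehydrogenase Gpd1 -0.58 ± 0.46 (-0.33 and -0.82).

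Between tissues, Fabp3 passed and was higher in brown fat. Fabp3, the fatty acid binding protein of heart and muscle, read -2.03 to -1.64 in white control and 6.73 to 6.99 in brown control (8.69 ± 0.99, limma, adjusted p = 0.00423), and the difference between the knockout tissues was 6.98 ± 1.08 (adjusted p = 0.0292). Fitm1, a droplet protein of skeletal muscle, was not well above background on any white array, so the filter kept it through the brown groups, where it had to be higher. It was at least 955-fold higher in brown control fat and at least 397-fold higher in brown knockout fat, where the white level on each array was its signal or, if greater, the dimmest signal well above background. The limma fit, which used the measured white values below background and not these bounds, gave adjusted p = 0.000147 and 0.000819. Fabp3 and Fitm1 were both higher in brown fat, as were the muscle markers and most brown adipocyte markers given above. Within white knockout Fabp3 did not follow the muscle markers. Its difference from the control mean was 2.05 for array 1 and -0.55 for arrays 2, 3 and 4. The muscle medians were -0.47 and 1.60 for the same samples. The part of either list in these values was not tested.

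The 10 genes were correlated with each other across the 9 samples. All 45 pairs had a Pearson r above 0, with a median of 0.71, a highest value of 0.985 and a lowest of 0.061 for Lpin1 with Mogat2. These values rest on 9 points that share tissue, genotype and scaling, and are a description. Pairs of other genes were not computed, so these values do not show a trait particular to the 10. Mogat1 lay closest to the mean profile of the 10 genes (r = 0.995) and Fabp4 farthest (r = 0.64). That mean includes the gene itself, which raises the r of each of the 10, while genes outside the 10 have no such share. Of all other genes, the 5 with the most like profile were Bscl2 (r = 0.994), Nudt18 (0.990), Sparc (0.990), Adh1 (0.986) and Chchd6 (0.984). The group means of Bscl2 ran from 3.08 in white control and 1.71 in white knockout to 2.01 in brown control and 1.44 in brown knockout.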

How the data were processed

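Per the labels, total RNA was labelled with Cy3 and hybridised to 1-colour Agilent arrays. Per the file headers, Feature Extraction 12.0.0.7 gave each spot's processed intensity, linear and corrected for background within the array. The authors' deposited value table held the same intensity, averaged per probe and unscaled: all 41174 probes equalled the spot means to within 0.001 of the value. Its scale and direction are therefore known and it has no centring. The deposited files also hold spot flags and the stated error of each intensity.

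Between 67.3% and 77.0% of the 43379 spots per array were well above background, with 0 saturated, and the number of distinct samples limits the precision. Outlier spots were left out and spots of a probe averaged. Values were log2 intensity minus the array's 75th percentile. Probes were named by RefSeq accession through a GRCm38.p6 table (28215 with a gene, 12959 without, which were not used). No probe coordinates are given, because the design file uses a different assembly. Probes were kept if 1 or more groups had them well above background on each of its 4 arrays. The brightest stood for its gene, which left 15456 genes. Arrays of a group were averaged where the median absolute deviation of their difference over the stated error was below 1, over 10067 bright probes. Bright meant a mean above the 75th percentile and a signal well above background on all 16 arrays. Under a stricter definition of bright, the white controls would have formed 1 sample, and this is an added alternative.

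The comparisons used limma 3.58.1 under R 4.3.3 (lmFit, eBayes, two-sided, Benjamini-Hochberg over all genes, threshold 0.05) in 1 model of 4 group means; the script was tested on simulated data. The 95% intervals come from the same fit. Slides were taken from the long number in each sample title, which the titles do not call a slide. The mean signal column that normexp would use was absent from the files used, so the median signal took its place.

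Arrays with the same replicate number in different groups were checked for shared deviations from their group means. Correlations were 0.295 to 0.571 for knockout white with knockout brown, where arrays 2, 3 and 4 are 1 sample in each tissue, and -0.52 to 0.412 for the white groups, -0.538 to -0.0414 for the brown groups and -0.13 to 0.183 for the control tissues. The labels do not say what a number stands for, and the block is given beside the comparison of tissues.

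The 10 genes, the pathway and marker lists and the tests were chosen with earlier results of these data known. All 10 genes are described in every comparison, with Nr3c1. From each pathway list, up to 4 called genes, or otherwise genes among the 2 with the smallest p, are named, with the 5 genes most like the mean profile.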

Additional observations from a re-analysis of the deposited data

How the results depend on the processing

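In white knockout, the difference stayed below 0 for 8 of the 10 genes in all 32 alternatives, and for Fabp4 and Dgat1 in all but 1. Leaving out brown arrays could not move a white difference, so those alternatives add no check on its direction. Entering the 16 arrays as separate samples changed the number of the 10 genes past the threshold from 0 to 9 in white fat, from 0 to 3 in brown fat, from 0 to 1 for the interaction, from 1 to 4 between control tissues and from 1 to 2 between knockout tissues. With the replicate block on the 16 arrays the counts were 10, 4, 1, 4 and 2, beside the shares of all genes given in the report. With slide as a block on the 16 arrays, 1 gene passed in white fat. Each of these fits on the 16 arrays treats near-identical arrays as independent. Leaving out arrays or averaged samples gave 0 to 5 genes in white fat and 0 to 1 between knockout tissues. All other counts stayed as reported under the alternatives run.

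Directions changed as follows, for differences that had not passed the threshold; the causes were not tested. In the comparison of knockout tissues, with and without the replicate block on the 16 arrays, Fabp4 became 0.029, Dgat1 0.16 and Mogat1 0.14. With slide as a block they became 0.46, 0.36 and 0.17, and between control tissues Lpl became 0.28, Cd36 0.13 and Gpam 0.080. Quantile normalization gave Lpl 0.015 and Fabp4 0.15 in brown knockout, Fabp4 0.33 for the interaction, and Fabp4 -0.36 and Lpin1 -0.088 between control tissues. The unscaled deposited table, under which the median of all genes was -0.231 in white knockout, 0.309 in brown knockout, -0.429 between control and 0.246 between knockout tissues, gave Lpl 0.16, Cd36 0.083 and Fabp4 0.072 in brown knockout. It also gave Fabp4 0.47 for the interaction, Fabp4 -0.25 and Lpin1 -0.27 between control tissues, and Fabp4 0.23, Dgat1 0.13 and Mogat1 0.072 between knockout tissues. Normexp background gave Fabp4 0.034 for the interaction, and Fabp4 -0.064 and Lpin1 -0.075 between control tissues. The mean of all probes gave Fabp4 0.096 for the interaction and -0.17 between control tissues. The dimmest Fabp4 probe, added after seeing the data, gave 0.78, -0.74 and 0.042 for the interaction, control tissues and knockout tissues. Counting the white control arrays as 1 sample, also added after seeing the data, changed no direction or call.

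Leaving out arrays or averaged samples moved Fabp4 from -0.43 to 0.018 and Dgat1 from -1.64 to 0.11 in white knockout. In brown knockout it moved Lpl from -0.55 to 0.011, Agpat2 from -1.41 to 0.034 and Dgat1 from -0.40 to 0.50. For the interaction it moved Cd36 from -0.057 to 1.67, Fabp4 from -0.38 to 0.068 and Dgat1 from -0.047 to 1.70. Between control tissues it moved Gpam from -0.60 to 0.048 and Lpin1 from -0.0018 to 0.14. Between knockout tissues it moved Lpl from -0.45 to 1.40, Cd36 from -0.61 to 1.12, Fabp4 from -0.28 to 0.16, Gpam from -0.26 to 0.69 and Agpat2 from -0.32 to 0.73. There it also moved Dgat1 from -1.02 to 0.72, Dgat2 from -0.66 to 0.079 and Mogat1 from -0.85 to 0.42. Most of these ends come from leaving out white knockout array 1 or the averaged arrays 2, 3 and 4. The 2 or 3 distinct samples a group set the width of the intervals given above.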
